A study of Homo sapiens with 4 samples.

Results

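The secreted antagonists of Wnt signaling, the scaffold gene AXIN2 and both GSK3 kinase genes were followed in HGC27 cells, a line established from a human gastric cancer, grown without glucose and with or without lactate. The genes are SFRP1, SFRP4 and FRZB (secreted Frizzled-related proteins), DKK1, DKK3 and DKK4 (the Dickkopf family), WIF1, AXIN2, GSK3A and GSK3B. They were taken by name as 10 of the 60666 rows of the expression table, and no name of theirs occurs on more than 1 row. The 10 names were chosen by their role in Wnt signaling with their TPM differences in this same comparison already known, so the differences given for them are a description and carry no independent test. Cells of both groups were kept in glucose-free DMEM with fetal bovine serum and antibiotics. One group received nothing more (no glucose, n = 2 libraries) and the other was stimulated with 25 mM lactate for 24 h (lactate, n = 2 libraries). All 4 libraries come from 1 cell line, and a culture with glucose is not among the groups compared here. The question the design addresses is how added lactate changes transcription when glucose is absent.

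Wnt proteins bind Frizzled receptors together with the coreceptors LRP5 and LRP6. Without a Wnt signal, a destruction complex built on AXIN and APC lets GSK3 phosphorylate beta-catenin, which is then degraded. With a signal, beta-catenin accumulates and acts with TCF/LEF factors on target genes. The SFRP proteins and WIF1 bind Wnt proteins outside the cell, whereas DKK1 and DKK4 bind LRP5 and LRP6. AXIN2 is both a scaffold of the destruction complex and a well-known target of beta-catenin, and GSK3A and GSK3B encode kinases that also act on glycogen synthase and many other substrates.

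Levels were taken as TPM, a share of a library's transcripts corrected for length, since each column sums to between 995439 and 996089 and the labels name RSEM, although the column names give no unit. On that scale levels of different genes can be set side by side, but the sequencing depth is unknown. The libraries listed 23272 to 25764 rows above 0, and their log2 levels correlated across genes at 0.966 to 0.972 within a group and at 0.951 to 0.958 between groups. Of 11 markers of gastric and general epithelium, 3 reached a mean of 1 TPM, and MUC5AC, TFF1, GKN1 and PGC were listed at 0 in all 4 libraries. EPCAM, a surface marker of epithelial cells, was between 0.13 and 0.80 TPM. The 9 markers of fibroblasts and stroma all passed the filter. Their summed level was 1276 and 1307 TPM without and 1584 and 1615 TPM with lactate. Of the 9 stromal markers, COL1A2, COL3A1 and PDGFRA (3 genes) rose with lactate, and of the 3 tested epithelial markers 1 did, KRT8. Of all tested rows, 4.69% were called higher. DCN and POSTN, 2 abundant stromal markers, had lower levels in both lactate libraries and were not called. DCN was at 213.1 and 209.8 TPM without and 162.1 and 186.0 TPM with lactate (limma adjusted p = 0.145). POSTN was at 106.5 and 119.3 TPM without and 73.7 and 88.5 TPM with lactate (adjusted p = 0.0852). The 4 endothelial markers summed to at most 0.23 TPM, and the 6 markers of blood and immune cells to between 2.85 and 6.0 TPM. The labels name a single gastric cancer line, and the part that these markers may have in the values below was not tested. In bulk RNA, fewer cells that express a gene and less RNA of it per cell cannot be told apart.

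SFRP4, DKK1 and GSK3B had higher levels with lactate, between 2.69 and 3.36 times those without, whereas AXIN2, FRZB and GSK3A had overlapping groups. DKK4 and WIF1 were listed at 0 in every library. Of the 10 genes, 8 averaged 1 TPM or more across libraries and entered the test, which was limma on log2(TPM + 1) over all 15051 rows of that level. In that fit, an adjusted p under 0.05 was reached by 6.59% of all tested rows. Higher calls made up 4.69% of the tested rows and lower calls 1.9%. Among the 8 genes, 3 were called higher, 0 were called lower and 5 were not called. None of them had an unadjusted p under 0.05 with a lower level in lactate. Both libraries of one group lay beyond both of the other for 5 of the 8 genes, against 58.4% of all tested rows. Lactate was the higher group for 4 of them (37.0% of all tested rows) and the lower group for 1 (21.3%). Because this contrast was in view when the genes were chosen, nothing is read from these counts. The median difference over the 8 genes was 0.38 on the log2 scale, beside 0.08 over all tested rows.

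**Figure D1:**
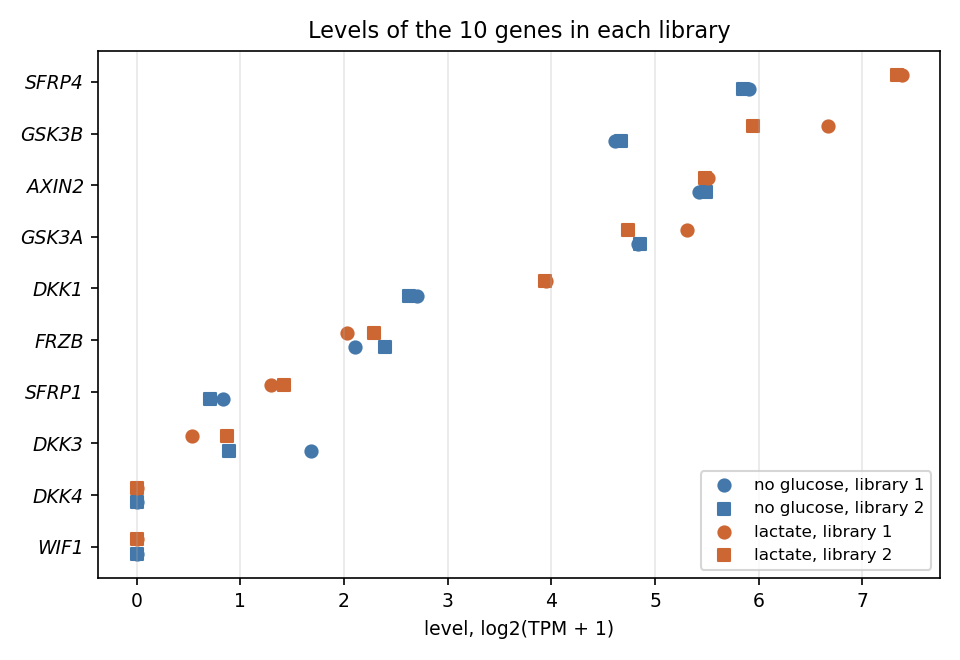
Level of each of the 10 genes in each library, as log2(TPM + 1) on the horizontal axis, with circles for library 1 and squares for library 2 of each group. SFRP4, GSK3B, DKK1 and, at low levels, SFRP1 show both lactate libraries to the right of both libraries without lactate. AXIN2 shows all 4 together, and DKK4 and WIF1 sit at 0.

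Without lactate the mean levels fell in the order SFRP4, AXIN2, GSK3A, GSK3B, DKK1, FRZB, DKK3 and SFRP1. With lactate the order was SFRP4, GSK3B, AXIN2, GSK3A, DKK1, FRZB, SFRP1 and DKK3. No neighbors in either order had overlapping values, but DKK3 and SFRP1 without lactate, at 1.54 ± 0.955 and 0.705 ± 0.106 TPM (SD, n = 2), differed by less than the SD of DKK3.

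Among the secreted Frizzled-related proteins, SFRP4 stood at much the highest level. SFRP4 (NCBI gene 6424) lies on chromosome 7 of GRCh38 from 37905932 to 38025695, on the minus strand. Its level was 58.77 and 56.63 TPM without lactate and 165.22 and 159.91 TPM with lactate. Both lactate libraries lay far above both others, and the libraries of each group were close to each other. The group levels were 57.7 ± 1.51 and 162.6 ± 3.76 TPM (SD, n = 2), a ratio of 2.82. The difference on the log2(TPM + 1) scale was 1.48 ± 0.09 (SE from limma, adjusted p = 0.0205). Its mean over the 4 libraries was above that of 92.8% of tested rows. The gene body overlaps EPDR1 on the opposite strand, with 0 exonic bases shared. EPDR1 was at 15.78 and 20.05 TPM without and 24.98 and 26.16 TPM with lactate (log2 difference 0.50 ± 0.14, adjusted p = 0.1002 in limma).

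SFRP1 (NCBI gene 6422; chromosome 8, 41261958 to 41309497, minus strand) was a low gene here, at 0.78 and 0.63 TPM without and 1.46 and 1.68 TPM with lactate. The groups did not overlap, but the difference of 0.59 ± 0.26 on the log2 scale did not pass the test (limma adjusted p = 0.208). The ratio of the group means was 2.23, and at such levels the pseudocount makes the log2 difference smaller than that ratio. FRZB, also known as SFRP3 (NCBI gene 2487; chromosome 2, 182833275 to 182867162, minus strand), was at 3.31 and 4.27 TPM without and 3.09 and 3.90 TPM with lactate. Its groups overlapped, with means of 3.79 ± 0.679 and 3.50 ± 0.573 TPM (SD, n = 2). The log2 difference of -0.09 ± 0.20 did not pass the test (limma adjusted p = 0.804), and its sign turned when the first lactate library (0.04) or the second library without lactate (0.05) was left out.

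Of the Dickkopf genes, DKK1 was the only one above 2.21 TPM in any library. DKK1 (NCBI gene 22943; chromosome 10, 52314296 to 52318042, plus strand), an inhibitor that takes LRP5 and LRP6 away from Wnt signaling, was at 5.53 and 5.19 TPM without and 14.45 and 14.37 TPM with lactate. Both lactate libraries were far above both others, and the libraries of each group were close. The group levels were 5.36 ± 0.240 and 14.41 ± 0.0566 TPM (SD, n = 2), a ratio of 2.69. The log2 difference was 1.28 ± 0.12 (SE, limma adjusted p = 0.0244). An antisense gene, PRKG1-AS1, shares 212 exonic bases with DKK1, 9.61% of the exonic bases of DKK1. Whether counting used strand is not given in the sources used here, so reads of those bases cannot be told apart. PRKG1-AS1 was at 3.29 and 3.51 TPM without and 2.53 and 4.20 TPM with lactate, with overlapping groups.

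DKK3 (NCBI gene 27122; chromosome 11, 11963106 to 12009769, minus strand), a divergent family member, was at 2.21 and 0.86 TPM without and 0.45 and 0.83 TPM with lactate. The lactate libraries were both below the others, narrowly at the nearest point, and the control libraries differed more than the groups did. The log2 difference of -0.58 ± 0.37 did not pass the test (limma adjusted p = 0.357). DKK3 and SFRP1 were just inside the filter, with means over the 4 libraries of 1.09 and 1.14 TPM, and each passed it only through the group in which it was higher. DKK4 (NCBI gene 27121; chromosome 8, 42374068 to 42377232, minus strand) and WIF1 (NCBI gene 11197; chromosome 12, 65050626 to 65121566, minus strand) lay outside it, listed at 0 in all 4 libraries. No ratio or test is given for them.

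The 7 secreted antagonists together summed to 70.6 and 67.6 TPM without and 184.7 and 180.7 TPM with lactate. SFRP4 made up 83.2% and 83.8% of that sum without and 89.5% and 88.5% with lactate. With DKK1 added, the shares were 91.1% and 91.5% without and 97.3% and 96.5% with lactate. Most of the summed level of these 7 genes was thus SFRP4 in both groups. Other extracellular inhibitors given below, such as NOTUM, are not in this sum. SFRP4 and DKK1 kept much the same proportion to each other, with a ratio of 10.6 and 10.9 without and 11.4 and 11.1 with lactate.

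AXIN2 (NCBI gene 8313; chromosome 17, 65528563 to 65561647, minus strand) was level across the 4 libraries, at 41.88 and 43.96 TPM without and 44.46 and 43.70 TPM with lactate. The groups overlapped, with means of 42.9 ± 1.47 and 44.1 ± 0.537 TPM (SD, n = 2). The log2 difference was 0.04 ± 0.09 (limma adjusted p = 0.826), and it turned to -0.07 after median-ratio scaling. A same-strand gene model, AC004805.1, shares 1316 exonic bases with AXIN2 and was at most 0.12 TPM in any library.

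Of the GSK3 genes, GSK3B rose and GSK3A did not pass the test, and the difference between their changes was not tested. GSK3B (NCBI gene 2932; chromosome 3, 119821323 to 120094417, minus strand) was at 23.52 and 24.42 TPM without and 100.46 and 60.62 TPM with lactate. Both lactate libraries were above both others, but they also lay far apart from each other. The group levels were 24.0 ± 0.636 and 80.5 ± 28.2 TPM (SD, n = 2), a ratio of 3.36. The log2 difference was 1.66 ± 0.24 (SE, limma adjusted p = 0.0352), the largest in size of the 8 tested genes. The first and second lactate libraries differed by 0.72 on the log2 scale, and 5.67% of tested rows had a larger gap between those libraries. Without the first lactate library the log2 difference of GSK3B was 1.303, and without the second it was 2.023.

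GSK3A (NCBI gene 2931; chromosome 19, 42230186 to 42242625, minus strand) was at 27.64 and 28.01 TPM without and 38.61 and 25.67 TPM with lactate. The second lactate library was the lowest of the 4 and the first was the highest, so the groups overlapped. The log2 difference of 0.17 ± 0.20 did not pass the test (limma adjusted p = 0.613), and it turned to -0.11 without the first lactate library. That library was the higher lactate library for both kinases, with a gap of 0.57 for GSK3A, exceeded in 8.83% of tested rows. Another protein-coding gene model on the same strand, AC006486.1, shares 479 exonic bases with GSK3A, which is 11.6% of the exonic bases of GSK3A. AC006486.1 fell by 2.16 on the log2 scale, from 8.02 and 9.91 TPM without to 1.10 and 1.35 TPM with lactate (limma adjusted p = 0.0244). It was singled out after its values were seen, and how far reads were split between the 2 gene models was not tested.

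Within each library, the ratio of GSK3B to GSK3A was 0.851 and 0.872 without lactate and 2.60 and 2.36 with lactate. GSK3A was thus the more abundant transcript in both libraries without lactate and GSK3B in both with lactate. Their summed level was 51.2 and 52.4 TPM without and 139.1 and 86.3 TPM with lactate, of which GSK3B made up 46.0% and 46.6% without and 72.2% and 70.3% with lactate. The share of GSK3B was close between the lactate libraries although their sums were not. With 2 libraries against 2, an exact permutation test of such a ratio cannot give a two-sided p below 0.333, so none was run.

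**Figure D2:**
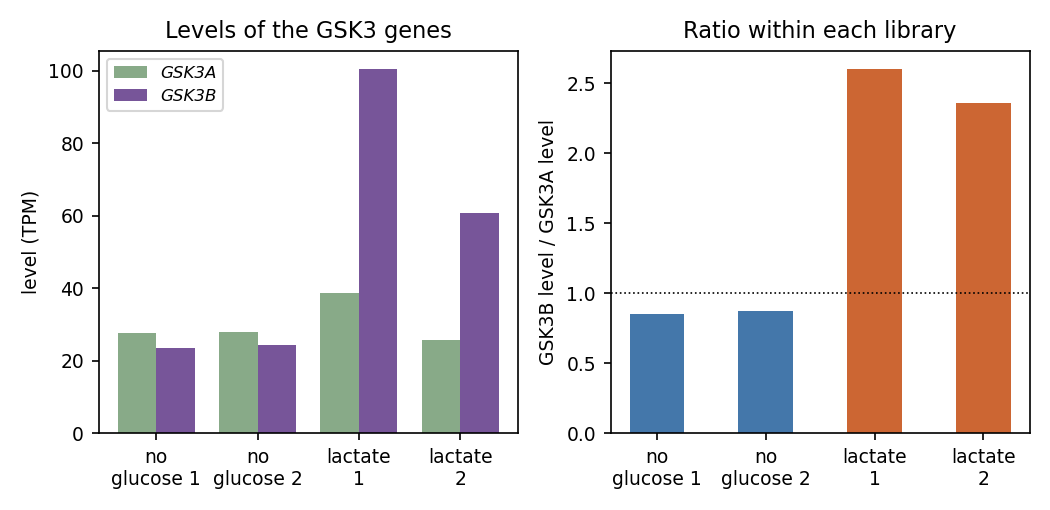
Left, the level of GSK3A and GSK3B in TPM in each of the 4 libraries. Right, the GSK3B level divided by the GSK3A level in the same library, with a dotted line at a ratio of 1. The ratio is 0.851 and 0.872 without lactate and 2.60 and 2.36 with lactate, while the GSK3B level itself differs between the lactate libraries.

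The calls of SFRP4, DKK1 and GSK3B were reached with all 4 libraries and the filter. Leaving out any 1 library ended each of the 3 calls. So did testing every row above 0 (limma adjusted p between 0.108 and 0.120), where 0 of 30146 rows were called. Nearly all calls of the whole table also ended when 1 library was left out, so these losses are not particular to the 3 genes. The log2 differences stayed between 1.452 and 1.505 for SFRP4 and between 1.24 and 1.32 for DKK1 when libraries were left out.

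**Figure D3:**
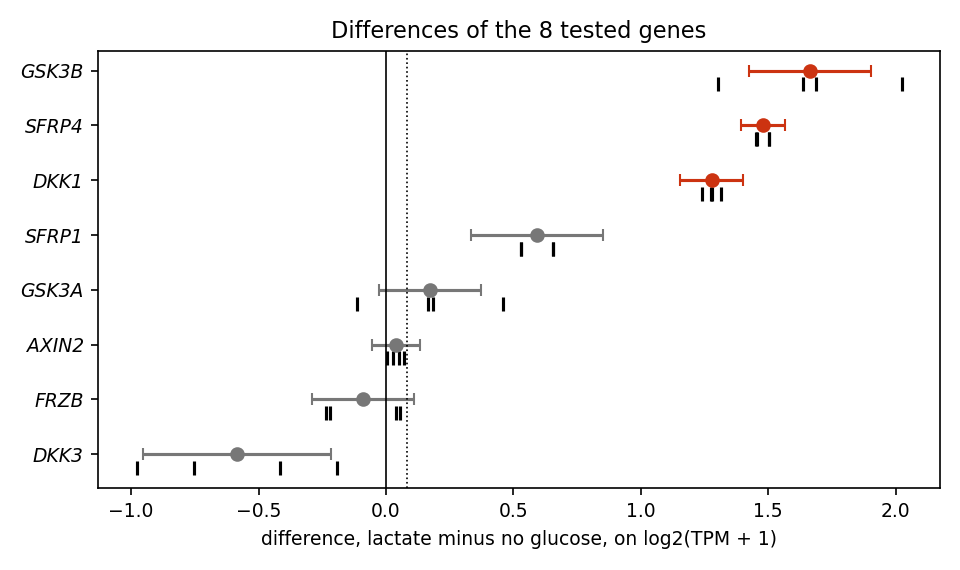
Difference between lactate and no glucose on the log2(TPM + 1) scale for the 8 tested genes. Points with bars are the limma estimate ± SE, red where the adjusted p is under 0.05, and the short black marks are the estimates with 1 library left out. The dotted line is the median of all tested rows, 0.08. The marks of SFRP4 and DKK1 stay close to their points, and those of GSK3B run from 1.303 to 2.023.

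Promoter sequence was available from RefSeq (GRCh38.p14) for 6 of the 10 genes, SFRP4, FRZB, DKK1, WIF1, GSK3A and GSK3B. The 250 bases before each annotated start were searched on both strands for GGAATG, the core bound by TEAD factors that the study followed, and for the TCF/LEF forms CTTTGAA or CTTTGAT or CTTTGTA or CTTTGTT through which beta-catenin acts. Of 35116 promoters in the table, 11.9% held the TEAD core and 12.0% a TCF/LEF form. DKK1 held 1 TEAD core, beginning 50 bases before the start, and 2 TCF/LEF forms, beginning 95 and 76 bases before it. GSK3A held the TEAD core 2 times, at 150 and 137 bases before the start and both read on the other strand as CATTCC. The other 4 windows held neither. SFRP4 and GSK3B, which rose, are among them, and a match or its absence is a description of these letters only. The windows of FRZB and WIF1 begin inside an annotated exon of the same gene, so they are not wholly upstream of it. Upstream bases of the 3 genes that rose and of GSK3A are shown 5′ to 3′ on the strand of the gene, with matches in capitals, to set the GSK3 pair and DKK1 side by side. Bases that fall in an annotated exon of the same gene were left off, which shortened SFRP4 to 152 bases (chr7:37916916-37917067, minus strand) and GSK3A to 227 bases (chr19:42242626-42242852, minus strand). DKK1 is chr10:52314031-52314280 on the plus strand and GSK3B chr3:120094448-120094697 on the minus strand.
SFRP4: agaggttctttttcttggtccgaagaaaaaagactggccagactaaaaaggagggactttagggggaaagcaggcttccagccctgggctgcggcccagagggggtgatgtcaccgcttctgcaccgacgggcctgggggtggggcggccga
DKK1: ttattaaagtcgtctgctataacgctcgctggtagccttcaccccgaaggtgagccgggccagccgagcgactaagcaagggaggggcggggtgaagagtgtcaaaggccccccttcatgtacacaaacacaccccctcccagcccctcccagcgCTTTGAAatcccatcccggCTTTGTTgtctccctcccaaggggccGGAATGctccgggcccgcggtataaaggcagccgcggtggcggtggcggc
GSK3A: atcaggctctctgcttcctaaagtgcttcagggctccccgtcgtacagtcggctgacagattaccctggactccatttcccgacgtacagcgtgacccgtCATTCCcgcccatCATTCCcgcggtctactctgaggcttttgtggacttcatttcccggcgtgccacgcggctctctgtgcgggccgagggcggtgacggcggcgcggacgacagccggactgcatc
GSK3B: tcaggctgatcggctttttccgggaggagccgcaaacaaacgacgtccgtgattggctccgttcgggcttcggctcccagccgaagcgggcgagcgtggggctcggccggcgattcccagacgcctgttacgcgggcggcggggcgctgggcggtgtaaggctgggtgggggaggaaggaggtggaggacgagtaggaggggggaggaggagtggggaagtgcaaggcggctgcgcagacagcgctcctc

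The other genes of the pathway were read from 116 names in 9 lists by role, which were also written with earlier results known. Of these, 84 were tested, 6 were higher with lactate, 0 were lower and 78 were not called in limma. The share called, 7.14%, was all in the higher direction. Over all tested rows, 6.59% were called in either direction and 4.69% were called higher. Without adjustment, 20 of the 84 had p under 0.05 with a higher and 4 with a lower level. Over all tested rows, 28.2% had an unadjusted p under 0.05, 19.3% with a higher and 8.95% with a lower level, and nothing particular to the pathway is read from its counts. The median log2 difference was 0.18, beside 0.08 over all tested rows. It was above 0 for 64 genes and below for 20, where 59.2% of all tested rows were above 0.

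**Figure D4:**
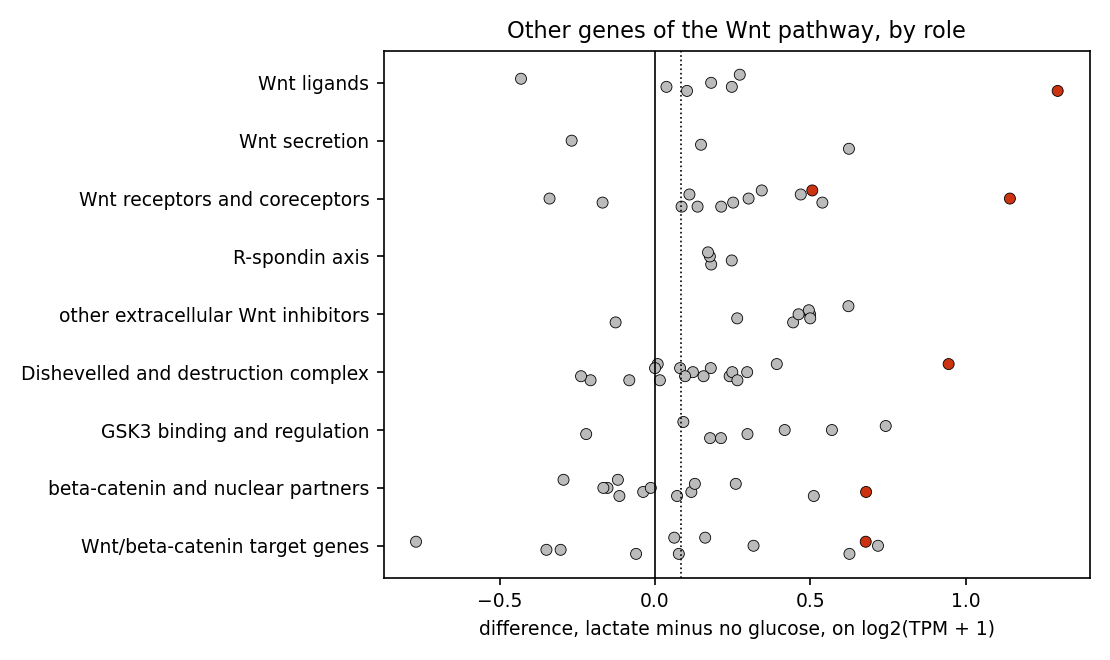
Difference between lactate and no glucose on the log2(TPM + 1) scale for the 84 tested pathway genes, 1 point a gene, in 9 lists by role. Red points have an adjusted p under 0.05, and the dotted line is the median of all tested rows, 0.08. All 6 red points lie to the right of 0, in the ligand, receptor, destruction complex, nuclear partner and target gene lists.

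Among the Wnt ligands, 7 of 19 genes were tested and 1 rose. WNT6 was at 1.64 and 0.99 TPM without and 4.85 and 4.42 TPM with lactate, a log2 difference of 1.297 ± 0.225 (limma adjusted p = 0.0424). All 3 genes for Wnt secretion were tested and 0 were called in limma, with 2 under an unadjusted p of 0.05 (28.2% of all tested rows), 1 in each direction. PORCN, which acylates Wnt proteins, was at 1.72 and 2.23 TPM without and 3.54 and 3.60 TPM with lactate. WLS, which carries them to the surface, was at 73.61 and 67.97 TPM without and 57.47 and 59.66 TPM with lactate. These secretion genes had adjusted p = 0.117 and 0.148.

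Of 16 receptors and coreceptors, 13 were tested and 2 rose. LRP5, a coreceptor that DKK1 binds, was at 15.29 and 13.43 TPM without and 39.33 and 27.42 TPM with lactate, a log2 difference of 1.14 ± 0.19 (limma adjusted p = 0.0411). LRP6, which DKK1 also binds, was not called, at 12.34 and 12.78 TPM without and 13.33 and 13.96 TPM with lactate (limma adjusted p = 0.558). PTK7, a pseudokinase coreceptor, was at 90.02 and 85.17 TPM without and 119.34 and 130.53 TPM with lactate, a log2 difference of 0.51 ± 0.10 (adjusted p = 0.0474). In the R-spondin axis 4 of 9 genes were tested and 0 were called in limma, with 0 under an unadjusted p of 0.05. The ubiquitin ligase ZNRF3 was at 5.98 and 5.72 TPM without and 7.02 and 6.41 TPM with lactate. LGR4, an R-spondin receptor, was at 30.72 and 35.55 TPM without and 32.34 and 43.69 TPM with lactate, with overlapping groups.

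The other extracellular inhibitors, a list of 15 genes without those above, had 8 tested members and 0 calls in limma. Their median log2 difference was 0.48, with 7 of 8 above 0 (59.2% of all tested rows). An unadjusted p under 0.05 with a higher level was reached by 5 of the 8, against 19.3% of all tested rows, and a list this short and without calls is given by its values only. NOTUM, which removes the lipid from Wnt proteins, was at 14.31 and 16.54 TPM without and 26.32 and 22.31 TPM with lactate (log2 difference 0.62 ± 0.14, adjusted p = 0.0614). KREMEN1, a receptor for Dickkopf proteins, was at 6.57 and 7.87 TPM without and 10.65 and 10.52 TPM with lactate (log2 difference 0.50 ± 0.14, adjusted p = 0.0936).

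In the cell, all 17 genes of the Dishevelled and destruction complex list were tested and 1 rose. NKD2, which binds Dishevelled and restrains the pathway, was at 48.07 and 49.02 TPM without and 102.37 and 87.08 TPM with lactate, a log2 difference of 0.95 ± 0.11 (limma adjusted p = 0.0308). All 8 genes for GSK3 binding and regulation were tested and 0 were called in limma, with 3 under an unadjusted p of 0.05, all higher with lactate (19.3% of all tested rows). SGK1, a kinase that phosphorylates GSK3B, was at 20.64 and 22.72 TPM without and 27.92 and 30.67 TPM with lactate (adjusted p = 0.0901). FRAT1, which binds GSK3, was at 1.09 and 0.94 TPM without and 1.77 and 3.10 TPM with lactate (adjusted p = 0.166).

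Of 14 genes for beta-catenin and its nuclear partners, 13 were tested and 1 rose. TLE3, a corepressor, was at 9.16 and 9.04 TPM without and 16.30 and 14.13 TPM with lactate, a log2 difference of 0.68 ± 0.13 (limma adjusted p = 0.0471). The median of this list was -0.01. Of 15 target genes of beta-catenin, 11 were tested and 1 rose, with a list median of 0.08. EPHB2, an ephrin receptor, was at 5.21 and 5.0 TPM without and 8.47 and 9.08 TPM with lactate, a log2 difference of 0.68 ± 0.13 (adjusted p = 0.0497). That call ended with the replicate block (adjusted p = 0.0574) and at a mean of at least 5 TPM (0.0536). Without adjustment, 3 target genes had p under 0.05 with a higher level (19.3% of all tested rows) and 2 with a lower level (8.95%). The higher ones besides EPHB2, named after their values were seen and not called, were JUN and CD44. JUN was at 9.03 and 10.31 TPM without and 16.17 and 14.74 TPM with lactate (limma adjusted p = 0.0545). CD44 was at 57.63 and 41.64 TPM without and 81.75 and 80.75 TPM with lactate (limma adjusted p = 0.0664). The 2 lower ones, also named after their values were seen and not called, were MYC and CCND1, which drive growth and the cell cycle. MYC was at 233.7 and 253.0 TPM without and 194.1 and 187.2 TPM with lactate (adjusted p = 0.0753). CCND1 was at 64.5 and 67.3 TPM without and 53.9 and 52.6 TPM with lactate (adjusted p = 0.107). NKD2 was the only one of the 6 pathway genes still called after median-ratio scaling. Their calls ended when any 1 library was left out, as did nearly all calls of the whole table.

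The rows whose pattern over the 4 libraries was most like that of SFRP4 were sought among 13218 tested rows with a gene symbol, by the root mean square difference of log2(TPM + 1) after each row's mean was subtracted. They were UBE2L6 (0.02), TRPM4 (0.02) and PROCR (0.04). UBE2L6, an enzyme that conjugates ISG15, was at 14.29 and 13.67 TPM without and 41.33 and 41.41 TPM with lactate. TRPM4, a cation channel, was at 9.65 and 9.52 TPM without and 29.90 and 28.41 TPM with lactate. For GSK3B, with its uneven lactate libraries, the nearest rows were farther off, RAB43 (0.08), SNCG (0.11) and UGT1A6 (0.12). RAB43, a small GTPase, was at 0.58 and 0.60 TPM without and 4.70 and 2.89 TPM with lactate. SNCG, which encodes gamma-synuclein, was at 9.64 and 11.01 TPM without and 38.12 and 26.13 TPM with lactate. These likenesses over 4 libraries are a description.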

How the data were processed

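RNA from 4 HGC27 samples was sequenced by the authors, 2 libraries without glucose and 2 with 25 mM lactate. The authors deposited 1 table of 60666 rows with a value for each library, given to 2 decimals. The deposited columns name no unit, and they were read as TPM because each sums to between 995439 and 996089 and the notes name a tool that gives TPM. The submitters' processing notes name RSEM 1.3.3 and hg38. RSEM sums the TPM of a gene's transcripts, each scaled by its own length. For the aligner, the annotation and the use of strand, the setting is not given in the sources used here. Depth is unknown, so no counting interval was computed.

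TPM values were taken as log2(TPM + 1), and the 15051 rows averaging 1 TPM or more were tested with limma 3.58.1 (R 4.3.3; group as the only term, variance trend, two-sided, Benjamini-Hochberg over all tested rows, adjusted p under 0.05 called). The code was also run on simulated normal values with the fitted variances, which does not bear on whether the calls here hold. The labels do not say whether libraries of a group were separate cultures, so p-values measure the spread between these libraries, which may be technical. Over all tested rows 992 were called, 706 higher (71.2%). After median-ratio scaling 775 were called, 377 higher (48.7%).

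The 10 genes, the gene lists and the markers were chosen with earlier results of these data known. From each list, up to 4 called genes per direction by adjusted p are named, or the 2 with the smallest p where none was called. LRP6, JUN, CD44, MYC and CCND1 are named outside that rule. The 3 most similar rows are given for the gene with the highest mean and the gene with the largest difference (the third for each with its likeness only). Coordinates are from GENCODE release 29 on GRCh38, and promoters from RefSeq. Alternatives were scaling, filters, pseudocount, protein-coding genes, a replicate block and leaving out each library. No count model was fitted to TPM.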

Additional observations from a re-analysis of the deposited data

How the results depend on the processing

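SFRP4, DKK1 and GSK3B stayed called after median-ratio scaling, at a mean of at least 5 TPM, with a pseudocount of 0.1, among protein-coding genes only and with the replicate block. Without a filter, their log2 differences were 1.48, 1.28 and 1.66 (limma adjusted p = 0.108, 0.108 and 0.120), no longer called. With 1 library left out they ran from 1.452 to 1.505, 1.24 to 1.32 and 1.303 to 2.023, none called. A group left with 1 library is then assumed to vary like the other. AXIN2 turned to -0.0704 after median-ratio scaling. With 1 library left out, FRZB ran from -0.235 to 0.0548, being 0.0400 without lactate replicate 1 and 0.0548 without no glucose replicate 2, GSK3A ran from -0.112 (without lactate replicate 1) to 0.459, and LGR4 ran from -0.0304 (without lactate replicate 2) to 0.392.

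Over all tested rows, 706 were called higher and 286 lower. The counts were 377 and 398 after median-ratio scaling and 0 and 0 without a filter (5072 of 30146 rows had an unadjusted p under 0.05). They were 928 and 442 of 10741 rows at a mean of at least 5 TPM and 868 and 336 with a pseudocount of 0.1. Among protein-coding genes only they were 1496 and 566 of 12137 rows. With 1 library left out they ran from 0 to 6 higher and from 0 to 2 lower, with 2377 to 3794 rows at an unadjusted p under 0.05. The 8 calls came without lactate replicate 1. Pathway genes called higher numbered 6, against 1 after median-ratio scaling and 0 without a filter. They numbered 9 at a mean of at least 5 TPM, 8 with a pseudocount of 0.1 and 11 among protein-coding genes only. With the replicate block they numbered 5. More rows of the whole table were called higher in each of these last settings. Nothing particular to the pathway is read from its larger counts there. Pathway genes called lower numbered 0, against 1, MYC, among protein-coding genes only. Why these counts move was not tested. For the 14 pathway genes named by the stated rule, there were 137 values under alternatives. Of these, 97 kept their direction and side of the threshold, 37 lost the call, 2 gained it (both NOTUM) and 1 turned.

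Replicate numbers 1 and 2 recur in both groups, but the labels do not say what a number shares, and deviations of same-numbered libraries correlated at 0.04 over the 15051 rows. With the number as a replicate block, 1207 rows were called, 822 higher and 385 lower, and 5 pathway genes were higher, EPHB2 having lost its call (adjusted p = 0.0574). The blocked log2 differences of SFRP4, DKK1 and GSK3B were 1.48, 1.28 and 1.66, with adjusted p = 0.0421, 0.0421 and 0.0422. Depth cannot be read from TPM, so no counting limit is given for DKK4 and WIF1. The alternative meant for read counts was left out, as the table holds TPM.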
